A study of Homo sapiens with 9 samples.

Results

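Rab genes encode small GTPases of membrane traffic, and 64 of them were found among the 60966 genes of the deposited tables by their symbol, RAB followed by a number and, in many, a letter from A to D. Their 409 transcripts, of which 20 were assembled from the reads and the rest came from Ensembl, were summed to 1 value per gene. The values are FPKM, fragments per kilobase of transcript, scaled to the number of mapped fragments of the library, in other words a level per length. The unit was inferred from the values, and differences between samples also depend on how the samples are scaled. With a minimum of 1 FPKM in at least 3 of the 9 samples, 47 of the 64 Rab genes and 14985 genes in all were tested.

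All samples were H1299 cells, a long-used human line from a non-small cell lung cancer, and the RNA was polyadenylated. The 3 groups of 3 samples were cells given a control siRNA labelled Scramble, cells given Si-FIBP#1 and cells given Si-FIBP#2, both of which target FIBP, the gene of the FGF1 intracellular binding protein. The comparisons ask which genes change when FIBP is depleted. The work rests on a single line and on transient depletion, the submitters call the samples independent without saying what was separate, and p-values measure the spread between these samples.

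In the Scramble samples FIBP had 88.4, 79.5 and 77.7 FPKM, 7.49, 7.77 and 4.30 FPKM under Si-FIBP#1 and 7.13, 5.92 and 8.21 FPKM under Si-FIBP#2, so the targeted gene went with the labels in every sample. The depth, estimated from the steps in which FPKM values move, was 20200000 to 23800000 fragments per sample, and 1 FPKM of a 2000 nt transcript was worth 35 to 41 fragments. KRT8, KRT18 and VIM, genes of an epithelial cancer line with mesenchymal traits, were among the well-expressed genes, whereas the lung lineage markers NKX2-1 and SFTPC had means of at most 0.08 FPKM. The leukocyte and blood markers PTPRC, CD3E, LYZ, HBB and HBA1 had means of at most 0.213 FPKM. Of the endothelial and fibroblast markers, COL1A1 had means of 0.0767, 0.687 and 1.09 FPKM in Scramble, Si-FIBP#1 and Si-FIBP#2. DCN had means of 0.31, 0.563 and 0.747 FPKM in the same order. The part of COL1A1 and DCN in the Rab results was not tested. Levels of the other listed markers of these cells are not given here. In bulk RNA, fewer cells with a transcript and less of it per cell cannot be told apart.

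A Rab protein is a switch that is on when it holds GTP and off when it holds GDP. Exchange factors turn it on at a given membrane, it then binds effectors such as tethers and motor proteins that move and fuse vesicles, and GTPase-activating proteins turn it off. New Rab proteins are carried by an escort protein to the Rab geranylgeranyl transferase, which attaches lipids to cysteines at the carboxyl end, and GDP dissociation inhibitors lift the lipid-bearing protein off membranes for another round. Each Rab works at a step of the secretory route (endoplasmic reticulum, Golgi, plasma membrane) or of the endocytic route (early, recycling and late endosomes, lysosomes), and close paralogues often share a step.

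The end of the coding sequence is shown for the paralogue pairs whose levels the results turn on. The lipid anchor that all of these proteins need is encoded there, and its layout differs among Rab genes. The sequences come from the transcript of each gene with the highest mean level among coding transcripts of GENCODE release 29 (GRCh38). They run 5′ to 3′ over the last 9 codons and the stop codon, with cysteine codons in capitals.
RAB8A: agcagctttttccgaTGTgttcttctgtga
RAB8B: accagtttctttcgtTGCtcgctactttga
RAB1A: gtcaagcagtcaggtggaggtTGCTGCtaa
RAB1B: gtaaagccggctggcggtggcTGTTGCtag
RAB5A: ccaaccaggaatcagTGTTGTagtaactaa
RAB5B: cagaacaagagccagTGTTGTagcaactga
RAB6A: ccagtcagtgaaggaggcTGTtccTGCtaa
RAB6B: ccggccagcgagggcggcTGCtccTGCtaa
RAB27A: gaaaaggagaaaggggcaTGTggcTGTtga
RAB27B: aagccaccagagaagaaaTGTatcTGCtag
RAB4A: gccccgaacgctcaggagTGTggtTGTtag
RAB4B: gccgtggcccctcagccgTGTggcTGCtga

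RAB8A and RAB8B have a lone cysteine codon at the fourth last position, a layout found in 10 of the 63 Rab genes with a coding sequence there. The other pairs carry a pair of cysteine codons, at the last 2 positions (15 genes), at the last and the third last position (19 genes) or at the third and the fourth last (5 genes). Within each pair the layout is the same. Over the whole coding sequence, the paralogues shown were identical at 66.9% (RAB27A and RAB27B) to 77.8% (RAB6A and RAB6B) of aligned positions, with no identical run longer than 20 nt, so their reads share little exact sequence.

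In Scramble cells, 5 Rab genes had a mean over 100 FPKM, 23 had a mean of 10 to 100 FPKM and 19 tested ones had a mean under 10 FPKM. By summed FPKM the most abundant were RAB7A of late endosomes (205.2 ± 2.59 FPKM, SD, n = 3) and RAB11A of recycling endosomes (204.6 ± 13.0 FPKM). They did not differ beyond their spread. RAB2A (133.7 ± 7.43 FPKM), which works between the endoplasmic reticulum and the Golgi, followed. The order is one of values per length, summed over transcripts of unlike length. Over the 9 samples, RAB11A transcripts of 588 and 635 nt gave 46.7% and 25.8% of its total and one of 4895 nt gave 11.4%. For RAB2A, 36.6% came from a transcript of 3735 nt and 33.3% from one of 659 nt. At the other steps RAB13 led exocytosis (98.9 ± 2.21 FPKM), RAB5C led early endosomes (69.9 ± 1.26 FPKM) and RAB12 led the genes with other or less settled roles (32.3 ± 1.12 FPKM).

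With Si-FIBP#1, 10 Rab genes were higher and 9 lower than in Scramble at a false discovery rate of 0.05, and 28 did not pass. Those 19 were 40.4% of the 47, against 47.7% of all genes tested (27.8% higher, 19.9% lower). With Si-FIBP#2, 17 were higher, 8 lower and 22 did not pass, 53.2% of the 47 against 48.8% of all genes tested (31.1% higher, 17.7% lower). The family as a whole therefore moved about as often as genes in general. Samples of the groups did not overlap for 27 of the 47 with Si-FIBP#1, where 58.9% of all genes did not, and for 30 of the 47 with Si-FIBP#2, where 57.3% did not.

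The changes were small. The 47 had a median log2 difference of 0.05 between Si-FIBP#1 and Scramble and of 0.10 between Si-FIBP#2 and Scramble, beside medians of 0.073 and 0.111 over all genes tested. When each sample was instead divided by the median of its ratios to the average sample, the medians over all genes were 0.004 and 0.005, and small rises shrank while falls grew. After this rescaling the Rab genes split into 5 higher and 11 lower with Si-FIBP#1 and into 9 higher and 10 lower with Si-FIBP#2, out of 48 tested. Over all genes the shares under this scaling were 22.5% up and 24.1% down for Si-FIBP#1, 22.3% up and 24.5% down for Si-FIBP#2. The differences below are log2 differences of FPKM + 1 with their SE and the adjusted p of limma (Benjamini-Hochberg over all genes). For the Rab genes, calls that the rescaling removes or adds are named. For the genes that regulate Rab proteins, only counts after rescaling are given. Both siRNA groups are compared with the same 3 Scramble samples, so their values stand side by side and are not independent of each other.

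Of the 19 calls of Si-FIBP#1, 10 passed whichever of the 9 samples was left out, namely RAB8A, RAB8B, RAB1A, RAB31, RAB34, RAB43, RAB4B, RAB14, RAB5A and RAB6B. Of the 25 calls of Si-FIBP#2, 20 did so, and the 5 that did not were RAB15, RAB26, RAB3A, RAB40C and RAB6A. RAB15 lost its call without 6 of the 9 samples (differences of 0.20 to 0.34), RAB26 and RAB40C without 4 each (0.47 to 0.66 and 0.21 to 0.30) and RAB3A and RAB6A without 3 each (0.33 to 0.50 and -0.18 to -0.14). The 9 that did not with Si-FIBP#1 were RAB23 (7 of the 9 samples, differences of 0.15 to 0.22), RAB7A (7, 0.14 to 0.16), RAB9A (6, 0.17 to 0.33), RAB27B (5, -0.56 to -0.46), RAB32 (4, -0.22 to -0.13), RAB39A (4, -0.47 to -0.36), RAB3B (4, -0.26 to -0.21), RAB27A (2, 0.31 to 0.49) and RAB5C (2, 0.22 to 0.29). The directions of these 14 did not change. How many of all called genes kept their calls in such fits is not given here. The counts of kept calls therefore cannot be set against genes in general.

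**Figure D1:**
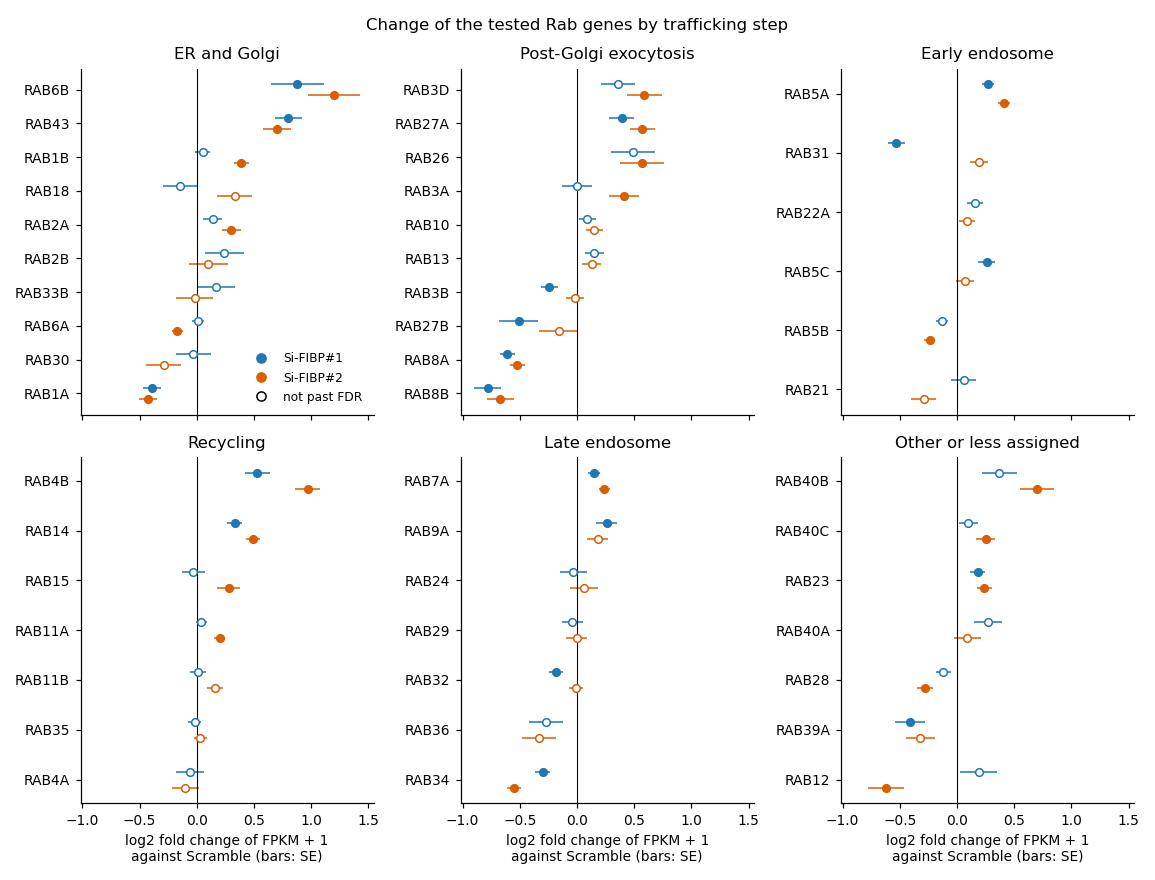
Log2 difference of FPKM + 1 from Scramble (x axis, bars are SE) for the 47 tested Rab genes (rows), grouped by trafficking step, with Si-FIBP#1 in blue and Si-FIBP#2 in orange. Filled points passed a false discovery rate of 0.05, and most points lie within 0.5 of 0, with RAB6B at 0.88 and 1.20 farthest to the right and RAB8B at -0.78 and -0.67 among those farthest to the left.

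Of the Rab genes of exocytosis, from the Golgi to the plasma membrane, 10 were tested. With Si-FIBP#1, 1 was higher and 4 were lower, and with Si-FIBP#2, 4 were higher and 2 were lower, which is 50.0% and 60.0% of them beside 47.7% and 48.8% of all genes. RAB8A, which directs vesicles to the plasma membrane and the primary cilium, had 43.2, 39.3 and 41.8 FPKM in Scramble, 27.6, 26.3 and 26.6 FPKM under Si-FIBP#1 and 29.9, 26.3 and 29.6 FPKM under Si-FIBP#2. Every depleted sample lay below every Scramble sample. The gene fell by 0.61 (SE 0.065, adjusted p = 6.1e-05) with Si-FIBP#1 and by 0.52 (SE 0.065, adjusted p = 1.7e-04) with Si-FIBP#2, to 64.7% and 69.1% of the Scramble mean. RAB8A lies on chromosome 19 from 16111629 to 16134234 on the plus strand (GRCh38), where HSH2D shares exonic bases on the same strand.

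Its paralogue RAB8B, on chromosome 15 from 63189469 to 63267782, was less abundant and fell as well. It had 8.86, 8.58 and 8.13 FPKM in Scramble, 3.98, 4.04 and 5.78 FPKM under Si-FIBP#1 and 5.15, 4.61 and 5.23 FPKM under Si-FIBP#2. Again every depleted sample lay below every Scramble sample. The fall was 0.78 on the log2 scale with Si-FIBP#1 (a difference of -0.78, SE 0.12, adjusted p = 6.3e-04) and 0.67 with Si-FIBP#2 (a difference of -0.67, SE 0.12, adjusted p = 0.00155). The summed level of the pair went from 49.96 ± 2.10 FPKM in Scramble to 31.4 ± 1.04 FPKM under Si-FIBP#1 and 33.6 ± 2.32 FPKM under Si-FIBP#2. Neither call was lost when any sample was left out or under the other scalings.

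RAB27A and RAB27B both serve the docking of secretory lysosomes and exosome-bearing compartments at the plasma membrane, and they differed in direction. RAB27A had 11.1, 12.5 and 14.6 FPKM in Scramble, 16.3, 19.2 and 15.5 FPKM under Si-FIBP#1 and 19.3, 17.7 and 20.8 FPKM under Si-FIBP#2. It rose by 0.39 (SE 0.11, adjusted p = 0.016) and by 0.57 (SE 0.11, adjusted p = 0.00235), and the first of these calls was lost after rescaling (0.32, adjusted p = 0.0526). The most abundant RAB27A transcript was one that the submitters' pipeline had assembled, with 50.6% of the gene's total, and exons of PIGBOS1 overlap the gene on the same strand. RAB27B had 3.59, 4.14 and 3.72 FPKM in Scramble and 2.61, 2.11 and 2.41 FPKM under Si-FIBP#1, a difference of -0.51 (SE 0.17, adjusted p = 0.0323). The Si-FIBP#2 samples, at 4.42, 2.24 and 3.51 FPKM, overlapped Scramble. Leaving out single samples ended the RAB27A call of Si-FIBP#1 without Scramble replicate 1 or Si-FIBP#1 replicate 2 (0.31 each), and the RAB27B call without any of the 3 Scramble samples or Si-FIBP#1 replicate 2 or 3 (-0.46 to -0.55).

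RAB3B, RAB3A and RAB3D belong to regulated exocytosis. RAB3B fell with Si-FIBP#1 (-0.24, adjusted p = 0.0303), where RAB3A and RAB3D did not pass. RAB3D (0.59, adjusted p = 0.0105) and RAB3A (0.41, adjusted p = 0.0271) rose with Si-FIBP#2, where RAB3B had a difference of -0.02 (adjusted p = 0.836). The genes were not tested against each other. RAB26, a Rab of secretory granules, rose with Si-FIBP#2 (0.57, adjusted p = 0.0329). After rescaling the RAB3A (0.34, adjusted p = 0.0588) and RAB26 (0.49, adjusted p = 0.0619) calls were lost. RAB10 and RAB13, the abundant members, did not pass in either comparison. Without Si-FIBP#2 replicate 2, RAB13 passed as higher with Si-FIBP#1 (0.15, the same difference as with all samples) and with Si-FIBP#2 (0.23, adjusted p = 0.00385, in place of 0.13), and with only the 2 groups compared in the fit it passed with Si-FIBP#1 (adjusted p = 0.0168).

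**Figure D2:**
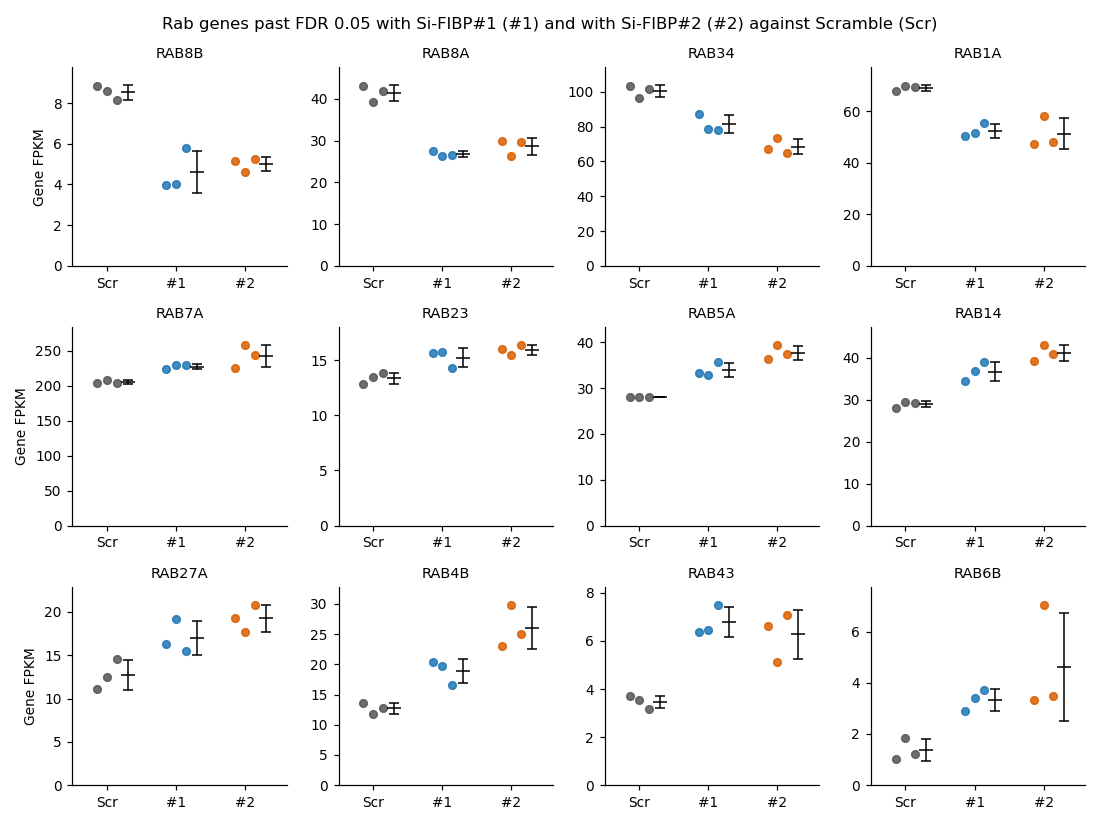
FPKM per sample (y axis, from 0) of the Rab genes that passed in both comparisons against Scramble, ordered from the largest fall to the largest rise. Points are samples and black marks give the mean and SD of 3. RAB8A falls from a mean of 41.4 to 26.8 and 28.6 FPKM and RAB4B rises from 12.7 to 18.9 and 26.0 FPKM, with no overlap of the depleted samples and Scramble.

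Between the endoplasmic reticulum and the Golgi, 10 Rab genes were tested. Of these, 2 were higher and 1 lower with Si-FIBP#1, and 4 were higher and 2 lower with Si-FIBP#2, 3 and 6 of the 10 where 47.7% and 48.8% of all genes passed. RAB1A, needed for transport from the endoplasmic reticulum to the Golgi, had 67.8, 70.1 and 69.5 FPKM in Scramble, 50.3, 51.7 and 55.5 FPKM under Si-FIBP#1 and 47.5, 58.3 and 48.3 FPKM under Si-FIBP#2. It was below Scramble in all 6 depleted samples. The differences were -0.39 (SE 0.078, adjusted p = 0.00258) and -0.43 (SE 0.078, adjusted p = 0.00153), and they held under every alternative tried. RAB1A lies on chromosome 2 from 65070696 to 65130331, and exons of CEP68 overlap it on the opposite strand.

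RAB1B, which shares this role, did not fall. It had 93.2, 85.6 and 86.1 FPKM in Scramble and 87.3, 93.4 and 94.5 FPKM under Si-FIBP#1, which overlapped. Under Si-FIBP#2 it had 107.7, 126.7 and 114.4 FPKM, above both other groups, a rise from Scramble of 0.39 (SE 0.067, adjusted p = 0.00108). The summed level of the RAB1 genes was 157.4 ± 3.16 FPKM in Scramble, 144.2 ± 6.24 FPKM under Si-FIBP#1 and 167.6 ± 15.5 FPKM under Si-FIBP#2.

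RAB6B, the less widespread paralogue of the Golgi Rab RAB6A, had the largest difference of the 47 in each comparison with Scramble. It had 1.04, 1.85 and 1.21 FPKM in Scramble, 2.88, 3.40 and 3.70 FPKM under Si-FIBP#1 and 3.33, 7.05 and 3.49 FPKM under Si-FIBP#2. The depleted samples all lay above Scramble, and replicate 2 of Si-FIBP#2 lay apart from the other two. The means were 243% and 338% of Scramble, and the log2 differences of FPKM + 1, which understate the change of a gene this low, were 0.88 (SE 0.23, adjusted p = 0.0113) and 1.20 (SE 0.23, adjusted p = 0.00215). On the scale of FPKM + 1, RAB6B passed both a false discovery rate of 0.05 and a 2-fold change with Si-FIBP#2, as the only one of the 47, where 5.05% of all genes passed both. Without replicate 2 of Si-FIBP#2 the difference was 0.91 and no Rab gene passed both. With Si-FIBP#1 no Rab gene passed both, where 5.66% of all genes did, although RAB6B did so without Scramble replicate 2 (1.02). These counts depend on the 1 FPKM added: with 0.1 FPKM in its place, 1 Rab gene passed both with Si-FIBP#1 and 2 did with Si-FIBP#2, where 10% and 9.42% of all genes did. The RAB6B call with Si-FIBP#1 was lost when assembled transcripts were left out (0.77, adjusted p = 0.0557). Exons of the protein-coding gene SRPRB overlap RAB6B on the opposite strand, as those of PP2D1 do RAB5A, PIGB RAB27A, MPV17L2 RAB3A and BAG2 RAB23, and whether the counting used strand is not given in the sources used here.

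RAB6A was far more abundant and moved the other way with Si-FIBP#2. It had 34.3, 35.2 and 35.3 FPKM in Scramble and 31.6, 31.5 and 29.95 FPKM under Si-FIBP#2, a difference of -0.17 (SE 0.049, adjusted p = 0.0188). The call was lost without Scramble replicate 2 or 3 (-0.16 each) or Si-FIBP#2 replicate 3 (-0.14). The Si-FIBP#1 samples overlapped Scramble and differed by 0.01. Its transcripts moved unequally, and they were not tested. ENST00000310653, with 50.6% of the total, had means of 19.81, 15.99 and 15.36 FPKM in Scramble, Si-FIBP#1 and Si-FIBP#2. In every sample of each siRNA it was below Scramble. In the same order, ENST00000336083 (41.8%) had 13.31, 15.01 and 13.92 FPKM and ENST00000541973 (6.5%) had 1.323, 3.767 and 1.483 FPKM. RAB6A shares an identical coding run of 121 nt with RAB6C, which was at most 0.12 FPKM.

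RAB43, a Rab of the endoplasmic reticulum and Golgi, rose in summed FPKM with each siRNA. It had 3.69, 3.53 and 3.19 FPKM in Scramble, 6.39, 6.46 and 7.51 FPKM under Si-FIBP#1 and 6.63, 5.13 and 7.08 FPKM under Si-FIBP#2. The differences were 0.80 (SE 0.12, adjusted p = 4.4e-04) and 0.70 (SE 0.12, adjusted p = 9.9e-04). Its total was split mainly between 2 Ensembl transcripts whose estimates traded places between samples. The ends of their coding sequences are shown because they differ in the anchor.
RAB43 ENST00000615093: agcaatcctcctgcctcaacctccaagtag
RAB43 ENST00000315150: atcggagaaggctggggcTGCgggTGCtga

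The first of these, 783 nt long, has no cysteine codon in its last 5, and the second, 4478 nt long in the deposited tables, has one at the last and the third last position. The shorter transcript had 54.1% of the RAB43 total over the 9 samples. It had 0.49, 0.51 and 1.90 FPKM in Scramble, 3.98, 2.19 and 6.62 FPKM under Si-FIBP#1 and 4.15, 1.74 and 5.25 FPKM under Si-FIBP#2. The longer one had 2.65, 2.68 and 0.90 FPKM in Scramble, 2.41, 3.65 and 0.07 FPKM under Si-FIBP#1 and 1.39, 2.92 and 0.71 FPKM under Si-FIBP#2. The means in Scramble, Si-FIBP#1 and Si-FIBP#2 were 0.967, 4.26 and 3.71 FPKM for the shorter and 2.08, 2.04 and 1.67 FPKM for the longer transcript. The rise of the sum thus came with the shorter transcript, whose estimates were high where those of the longer one were low. As FPKM is a level per length, a fragment placed on the shorter transcript adds more to the sum than one on the longer. The share of this placing in the rise was not tested. The readthrough gene ISY1-RAB43 shares exons with RAB43 on the same strand, and it did not pass in either comparison (0.21, adjusted p = 0.326 with Si-FIBP#1, and 0.34, adjusted p = 0.123 with Si-FIBP#2).

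RAB2A rose with Si-FIBP#2, from 133.7 ± 7.43 FPKM to 165.0 ± 6.89 FPKM (0.30, SE 0.083, adjusted p = 0.0133). After rescaling the difference was 0.18 and did not pass. With Si-FIBP#1 RAB2A differed by 0.14 (adjusted p = 0.185), and it passed as higher only without Si-FIBP#1 replicate 1 (0.24, adjusted p = 0.0116). The remaining members of the step, RAB2B, RAB18, RAB30 and RAB33B, did not pass in either comparison.

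On early endosomes, 6 Rab genes were tested, of which 2 were higher and 1 lower with Si-FIBP#1 and 1 was higher and 1 lower with Si-FIBP#2 (50.0% and 33.3%, where all genes had 47.7% and 48.8%). RAB5A, which drives fusion of incoming vesicles with early endosomes, had 28.0, 28.0 and 28.1 FPKM in Scramble, 33.4, 32.8 and 35.6 FPKM under Si-FIBP#1 and 36.4, 39.4 and 37.4 FPKM under Si-FIBP#2. The 3 groups did not overlap. It rose by 0.27 (SE 0.055, adjusted p = 0.00314) and by 0.41 (SE 0.055, adjusted p = 2.3e-04).

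The 2 other RAB5 genes, which act at the same step, did not pass as higher in both comparisons. RAB5B had 36.7, 38.0 and 38.0 FPKM in Scramble, 35.1, 32.8 and 35.0 FPKM under Si-FIBP#1 and 32.2, 31.2 and 31.2 FPKM under Si-FIBP#2, and it fell with Si-FIBP#2 (-0.24, SE 0.051, adjusted p = 0.00314). After rescaling it was also called lower with Si-FIBP#1 (-0.20, adjusted p = 0.0112), as it was as TPM (-0.17, adjusted p = 0.0257). RAB5C, the most abundant of the 3, had 69.6, 71.2 and 68.8 FPKM in Scramble, 79.7, 88.2 and 83.5 FPKM under Si-FIBP#1 and 67.0, 82.9 and 71.1 FPKM under Si-FIBP#2. It rose with Si-FIBP#1 (0.26, SE 0.076, adjusted p = 0.0189), a call lost after rescaling, without Scramble replicate 3 (0.25) and without Si-FIBP#1 replicate 2 (0.22), and overlapped Scramble with Si-FIBP#2. Summed over the RAB5 genes, the level was 135.5 ± 1.60 FPKM in Scramble, 152.0 ± 3.31 FPKM under Si-FIBP#1 and 142.9 ± 9.46 FPKM under Si-FIBP#2.

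RAB31, which carries cargo from the Golgi to endosomes, was lower with Si-FIBP#1 and not with Si-FIBP#2. It had 38.7, 38.4 and 39.2 FPKM in Scramble, 24.9, 27.8 and 26.9 FPKM under Si-FIBP#1 and 47.7, 39.2 and 46.3 FPKM under Si-FIBP#2. The difference was -0.53 (SE 0.077, adjusted p = 4.1e-04) with Si-FIBP#1 and 0.19 (adjusted p = 0.0711) with Si-FIBP#2, and the latter passed as higher without Si-FIBP#2 replicate 2 (0.27, adjusted p = 0.00513). RAB21 and RAB22A, of integrin traffic and early endosome sorting, did not pass in either comparison, although the rescaled values of RAB21 passed as lower in Si-FIBP#2 than in Scramble (-0.41, adjusted p = 0.0116) and than in Si-FIBP#1 (-0.40, adjusted p = 0.0374).

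**Figure D3:**
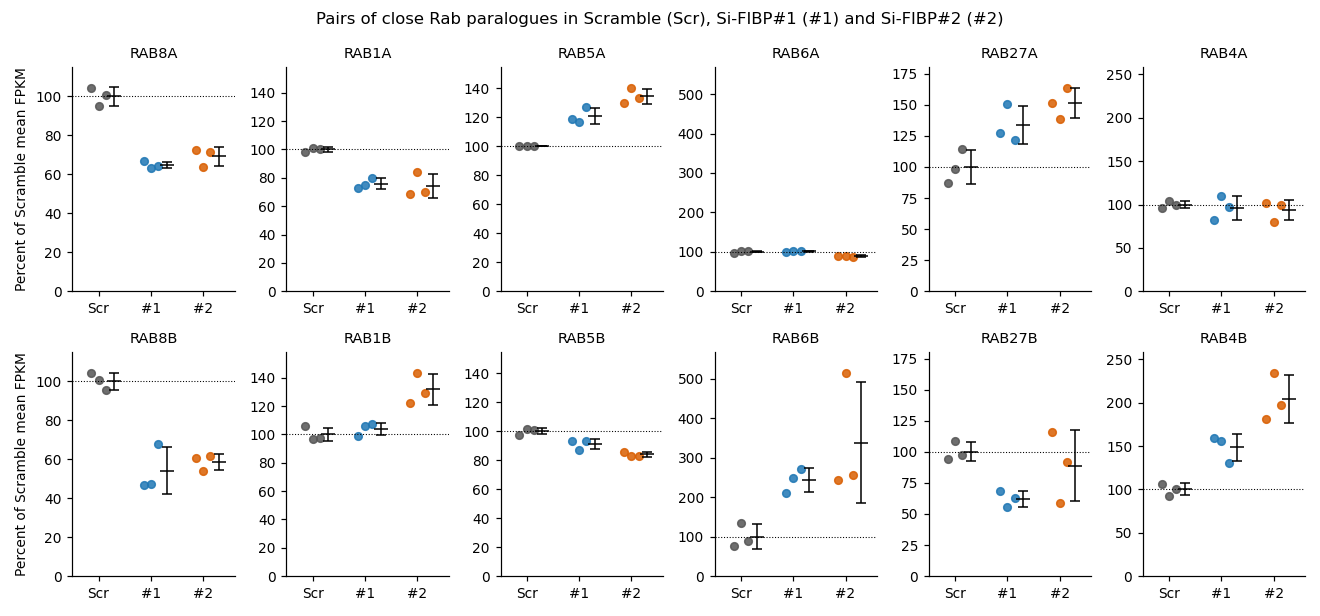
Level of each sample as a percent of the Scramble mean (y axis, from 0) for 6 pairs of paralogues, 1 pair per column on a shared scale. Points are samples and black marks give the mean and SD of 3. RAB8A and RAB8B both sit below the dotted line at 100, whereas RAB1A is below it and RAB1B above it with Si-FIBP#2, and RAB5A is above it and RAB5B below it.

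In recycling, 7 Rab genes were tested. With Si-FIBP#1, 2 were higher and 0 lower, and with Si-FIBP#2, 4 were higher and 0 lower, where 27.8% and 31.1% of all genes were higher and 19.9% and 17.7% lower. Of the 4, the calls of RAB11A and RAB15 were lost after rescaling. RAB4B, of the fast return of receptors to the surface, had 13.6, 11.8 and 12.8 FPKM in Scramble, 20.3, 19.8 and 16.6 FPKM under Si-FIBP#1 and 23.0, 29.9 and 25.1 FPKM under Si-FIBP#2. The 3 groups did not overlap, and the means with the siRNAs were 149% and 204% of Scramble. The differences were 0.53 (SE 0.11, adjusted p = 0.00295) and 0.97 (SE 0.11, adjusted p = 8.6e-05).

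RAB4B lies on chromosome 19 from 40778216 to 40796938 and shares exons on the same strand with the readthrough genes MIA-RAB4B and RAB4B-EGLN2, so their reads may be split between them. RAB4B-EGLN2 was also higher, at 2.97, 1.53 and 1.73 FPKM in Scramble, 2.64, 4.13 and 5.77 FPKM under Si-FIBP#1 and 3.64, 7.07 and 4.68 FPKM under Si-FIBP#2 (0.73, adjusted p = 0.0488, and 0.99, adjusted p = 0.0138). Of the RAB4B total, 84.6% came from the transcript ENST00000357052, which had 9.54 to 10.7 FPKM in Scramble, 13.7 to 18.1 FPKM under Si-FIBP#1 and 19.0 to 27.2 FPKM under Si-FIBP#2. Its paralogue RAB4A had a mean of 19.4 ± 0.855 FPKM in Scramble, 18.7 ± 2.68 FPKM under Si-FIBP#1 and 18.2 ± 2.32 FPKM under Si-FIBP#2, and did not pass.

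RAB14, which acts between the Golgi and recycling endosomes, had 28.0, 29.6 and 29.3 FPKM in Scramble, 34.4, 36.7 and 39.1 FPKM under Si-FIBP#1 and 39.2, 43.0 and 41.0 FPKM under Si-FIBP#2. It was higher in all 6 depleted samples. It rose by 0.33 (SE 0.062, adjusted p = 0.00191) and by 0.49 (SE 0.062, adjusted p = 1.9e-04), under all scalings as well. RAB11A of the recycling endosome rose with Si-FIBP#2, from 204.6 ± 13.0 to 234.2 ± 5.98 FPKM (0.20, SE 0.050, adjusted p = 0.00961), and RAB15 did so too (0.28, SE 0.10, adjusted p = 0.0423). Both calls were lost after rescaling. RAB11B and RAB35 did not pass in either comparison.

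Among the Rab genes of late endosomes and lysosomes, 7 were tested, of which 2 were higher and 2 lower with Si-FIBP#1 and 1 was higher and 1 lower with Si-FIBP#2, 57.1% and 28.6% in comparison with 47.7% and 48.8% over all genes. RAB34, which helps to position lysosomes and to form cilia, had 103.6, 96.5 and 101.3 FPKM in Scramble, 87.4, 78.9 and 78.0 FPKM under Si-FIBP#1 and 66.9, 73.3 and 65.1 FPKM under Si-FIBP#2. The 3 groups did not overlap. It fell by 0.30 (SE 0.064, adjusted p = 0.00357) and by 0.55 (SE 0.064, adjusted p = 1.1e-04), to 81.1% and 68.1% of Scramble.

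RAB34 lies on chromosome 17 from 28714281 to 28718429 on the minus strand, and its transcripts moved unequally. ENST00000395245, with 26.5% of the total, had 33.2, 33.8 and 33.8 FPKM in Scramble, 15.6, 13.99 and 12.9 FPKM under Si-FIBP#1 and 17.2, 18.4 and 20.2 FPKM under Si-FIBP#2. This transcript was thus lower with Si-FIBP#1 than with Si-FIBP#2, in every sample, while the gene's total was the other way round. ENST00000415040, with 16.8% of the total, had 15.4 to 17.0 FPKM in Scramble, 13.9 to 16.2 FPKM under Si-FIBP#1 and 10.1 to 12.3 FPKM under Si-FIBP#2. Single transcripts were not tested.

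RAB7A, which controls the fusion of late endosomes with lysosomes, had 203.5, 208.2 and 203.9 FPKM in Scramble, 224.0, 229.1 and 229.4 FPKM under Si-FIBP#1 and 226.0, 258.2 and 243.7 FPKM under Si-FIBP#2. All 6 depleted samples were above Scramble, with differences of 0.15 (SE 0.050, adjusted p = 0.0349) and 0.24 (SE 0.050, adjusted p = 0.00345), where the medians over all genes were 0.073 and 0.111. After rescaling the differences were 0.07 (adjusted p = 0.271) and 0.12 (adjusted p = 0.0733) and did not pass. RAB9A, of the return of mannose 6-phosphate receptors to the Golgi, rose with Si-FIBP#1 (0.26, adjusted p = 0.044), a call that the rescaling also removed, and RAB32, of lysosome-related organelles, fell with Si-FIBP#1 (-0.18, adjusted p = 0.0367). RAB24, RAB29 and RAB36 did not pass in either comparison.

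Of the 7 tested genes with other or less settled roles, 1 was higher and 1 lower with Si-FIBP#1, and 3 were higher and 2 lower with Si-FIBP#2, 28.6% and 71.4% of the 7 next to 47.7% and 48.8% of all genes. RAB12, of the degradation of the transferrin receptor and of autophagy, had 33.6, 31.7 and 31.6 FPKM in Scramble, 33.2, 37.0 and 41.2 FPKM under Si-FIBP#1 and 16.6, 28.1 and 18.8 FPKM under Si-FIBP#2. It fell with Si-FIBP#2 (-0.62, SE 0.16, adjusted p = 0.01), where replicate 2 lay nearest to Scramble, and overlapped Scramble with Si-FIBP#1. Without that replicate the difference was -0.83. RAB12 shares exonic bases with an antisense gene, AP001793.1.

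RAB23, a brake on hedgehog signalling, had 12.8 to 13.8 FPKM in Scramble, 14.3 to 15.8 FPKM under Si-FIBP#1 and 15.4 to 16.4 FPKM under Si-FIBP#2. Its differences of 0.18 (adjusted p = 0.0463) and 0.24 (adjusted p = 0.0127) did not pass after rescaling. The call with Si-FIBP#1 was lost under 13 of the 17 alternatives, a fit with the replicate numbers as blocks among them. RAB40B, a Rab that joins a ubiquitin ligase, had 3.49, 3.02 and 4.48 FPKM in Scramble and 6.12, 8.19 and 5.50 FPKM under Si-FIBP#2, and rose there by 0.70 (SE 0.15, adjusted p = 0.00363). RAB40C rose with Si-FIBP#2 (0.25, adjusted p = 0.0261), a call lost after rescaling. RAB28 fell with Si-FIBP#2 (-0.28, adjusted p = 0.00724) and RAB39A with Si-FIBP#1 (-0.41, adjusted p = 0.0248), and RAB40A did not pass. The rescaling added a lower call for RAB28 with Si-FIBP#1 (-0.20, adjusted p = 0.0332) and for RAB39A with Si-FIBP#2 (-0.41, adjusted p = 0.0287).

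The siRNAs were also compared with each other, which does not use the Scramble samples' means. Between Si-FIBP#2 and Si-FIBP#1, 3 Rab genes were higher and 3 lower, 12.8% of the 47 against 15.4% of all genes tested (9.58% higher, 5.8% lower), and none passed a 2-fold change, where 0.561% of all genes did. Groups did not overlap for 20 of the 47, against 32.9% of all genes. As TPM the calls split into 8 higher and 1 lower, where all genes had 12.2% higher and 4.11% lower. The values that follow are those of FPKM + 1. RAB31 was higher with Si-FIBP#2 by 0.72 (SE 0.077, adjusted p = 6.6e-04), RAB4B by 0.44 (SE 0.11, adjusted p = 0.0253) and RAB1B by 0.34 (SE 0.067, adjusted p = 0.0102). RAB12 differed by -0.81 (SE 0.16, adjusted p = 0.00993), RAB34 by -0.25 (SE 0.064, adjusted p = 0.0292) and RAB6A by -0.18 (SE 0.049, adjusted p = 0.0382). The RAB31, RAB12 and RAB1B differences passed under every alternative tried, whereas those of RAB34, RAB4B and RAB6A were lost under 7, 4 and 12 of the 17 alternatives, with differences of -0.30 to -0.20, 0.34 to 0.52 and -0.22 to -0.13 over all 17. For RAB8A and RAB8B the siRNAs differed by 0.09 (adjusted p = 0.403) and 0.11 (adjusted p = 0.593), which did not pass.

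**Figure D4:**
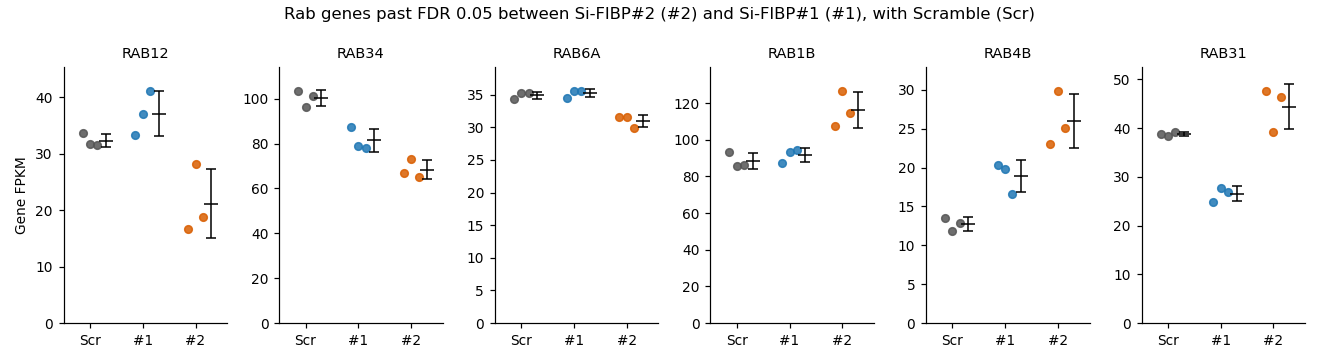
FPKM per sample (y axis, from 0) of the 6 Rab genes that passed a false discovery rate of 0.05 between the siRNAs, ordered by the difference of Si-FIBP#2 from Si-FIBP#1. Points are samples and black marks give the mean and SD of 3. RAB12 is lower with Si-FIBP#2 (16.6 to 28.1 FPKM) than with Si-FIBP#1 (33.2 to 41.2 FPKM), and RAB31 is higher (39.2 to 47.7 against 24.9 to 27.8 FPKM).

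Summed over all 64 Rab genes, the level was 1747 ± 19.0 FPKM in Scramble, 1784 ± 27.1 FPKM under Si-FIBP#1 and 1882 ± 34.0 FPKM under Si-FIBP#2. The last was 107.7% of Scramble, and the Si-FIBP#2 samples were also those with the highest median ratios over all genes, 1.03 to 1.06 beside 0.945 to 0.978 in Scramble. By step, recycling went from 424.5 ± 4.87 to 443.7 ± 7.09 and 493.8 ± 5.76 FPKM, and the endoplasmic reticulum and Golgi step from 360.0 ± 9.04 to 366.6 ± 24.6 and 408.7 ± 11.5 FPKM. Early endosome genes stood at 216.6 ± 3.18, 223.8 ± 7.01 and 224.2 ± 9.81 FPKM and late endosome genes at 408.4 ± 2.03, 406.8 ± 5.06 and 416.4 ± 18.7 FPKM, with overlap of each siRNA group and Scramble. Exocytosis genes also overlapped, at 243.5 ± 7.04, 243.9 ± 5.32 and 254.3 ± 13.7 FPKM. The genes with other or less settled roles summed to 93.6 ± 1.36, 99.3 ± 3.45 and 83.9 ± 6.32 FPKM, so that all Si-FIBP#1 samples lay above Scramble and all Si-FIBP#2 samples below it. These sums add values per length over transcripts of unlike length, and they were not tested.

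The 17 Rab genes that were not tested reached at most 1.30 FPKM in any sample. RAB38, of melanosomes, reached that value and RAB9B reached 0.96 FPKM. RAB9B had 0.34, 0.24 and 0.16 FPKM in Scramble, 0.38, 0.49 and 0.57 FPKM under Si-FIBP#1 and 0.90, 0.92 and 0.96 FPKM under Si-FIBP#2. Its groups did not overlap. As TPM, FPKM scaled to an equal sum in every sample, it reached the minimum of 1 through the Si-FIBP#2 samples alone, so no test of it is given. RAB6C, RAB6D, RAB7B, RAB3C, RAB17, RAB19, RAB20, RAB33A, RAB37, RAB39B, RAB41, RAB42 and RAB44 were lower still, and RAB1C and RAB25, the latter an epithelial paralogue of RAB11A, were listed at 0 in every sample. RAB6C and RAB6D are identical at 99.5% of coding positions, so reads cannot be assigned between them with certainty.

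The genes that load, switch and use Rab proteins were followed from a list of 135, of which 120 were tested. With Si-FIBP#1, 43 were higher and 20 lower, 52.5% of the 120 against 47.7% of all genes. With Si-FIBP#2, 46 were higher and 16 lower, 51.7% against 48.8%. After rescaling the splits were 35 higher and 24 lower, and 34 higher and 25 lower, beside the 22.5% and 24.1%, and 22.3% and 24.5%, of all genes under that scaling. Which of the calls below the rescaling removed is not given by gene. Of the 120, 4 reached the minimum of 1 FPKM in no Scramble sample (DENND2C, DENND6B, RAB3IL1 and SYTL5) and so entered through the siRNA groups where they were higher. Without these 4, the remaining 116 split into 40 up and 20 down for Si-FIBP#1 and 44 up and 16 down for Si-FIBP#2.

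All 8 genes of prenylation and membrane extraction were tested. With Si-FIBP#1, 4 fell and 2 rose, and with Si-FIBP#2, 4 fell and 1 rose, where 19.9% and 17.7% of all genes were lower and 27.8% and 31.1% higher. CHML, an escort protein that brings new Rab proteins to the transferase, had 8.84, 8.83 and 8.42 FPKM in Scramble, 3.42, 3.43 and 4.04 FPKM under Si-FIBP#1 and 6.67, 4.76 and 6.59 FPKM under Si-FIBP#2. It fell by 1.07 (SE 0.12, adjusted p = 8.0e-05) and by 0.48 (SE 0.12, adjusted p = 0.00795). RABGGTB, the catalytic subunit of the transferase, had 102.6, 97.8 and 94.2 FPKM in Scramble, 68.1, 63.0 and 64.6 FPKM under Si-FIBP#1 and 75.9, 82.3 and 75.2 FPKM under Si-FIBP#2.

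RABGGTB fell by 0.58 (SE 0.056, adjusted p = 3.2e-05) and by 0.33 (SE 0.056, adjusted p = 9.7e-04), whereas the other subunit, RABGGTA, did not fall: it rose with Si-FIBP#1 (0.34, adjusted p = 0.018) and differed by 0.23 with Si-FIBP#2 (adjusted p = 0.088). The other escort protein, CHM, fell by 0.20 (adjusted p = 0.0429) and 0.31 (adjusted p = 0.00552). GDI2, an extraction factor, fell by 0.39 (adjusted p = 2.5e-04) and 0.36 (adjusted p = 4.2e-04). RABAC1, which helps Rab proteins onto membranes, rose from 145.7 ± 6.15 FPKM to 221.1 ± 4.91 and 229.2 ± 3.20 FPKM (0.60, adjusted p = 5.6e-06, and 0.65, adjusted p = 4.0e-06).

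**Figure D5:**
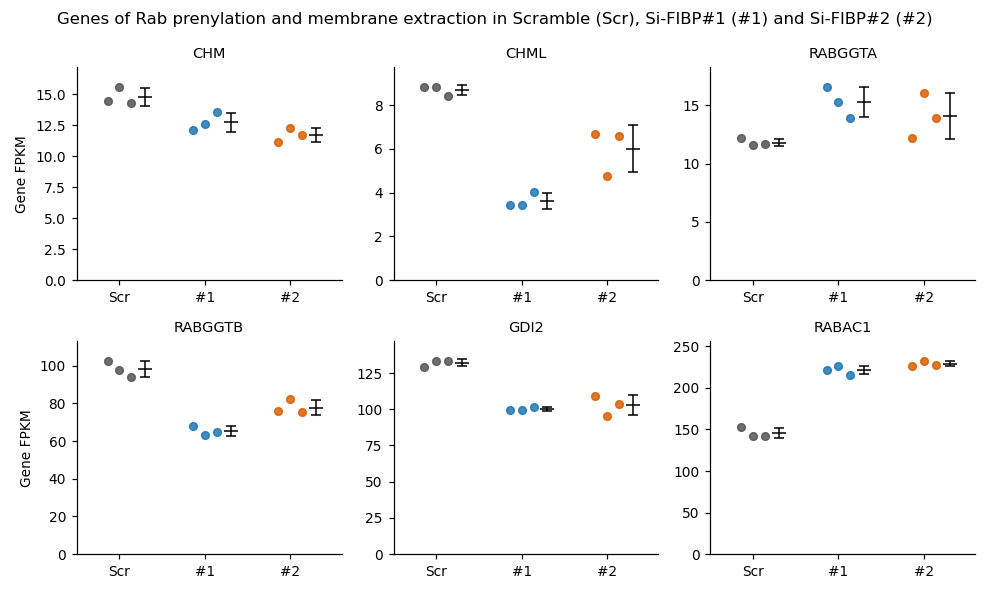
FPKM per sample (y axis, from 0) of 6 genes of Rab prenylation and membrane extraction, those described in the text. Points are samples and black marks give the mean and SD of 3. CHML falls from a mean of 8.70 to 3.63 and 6.01 FPKM and RABGGTB from 98.2 to 65.2 and 77.8 FPKM, while RABAC1 rises from 145.7 to 221.1 and 229.2 FPKM.

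Of 37 exchange factors tested, 13 were higher and 1 lower with Si-FIBP#1, and 17 were higher and 3 lower with Si-FIBP#2, 37.8% and 54.1% of them against 47.7% and 48.8% of all genes. Without DENND2C, DENND6B and RAB3IL1, the higher counts were 11 and 15 of 34, and the lower counts stayed at 1 and 3. DENND5B went from 17.3 ± 0.271 FPKM to 36.2 ± 1.53 and 32.5 ± 0.469 FPKM (1.02, adjusted p = 8.9e-07, and 0.87, adjusted p = 2.5e-06), although 66.1% of its total came from assembled transcripts. RIC1, a subunit of the exchange factor of RAB6A, rose by 0.49 (adjusted p = 7.6e-04) and 0.70 (adjusted p = 9.4e-05). The low DENND6B, which entered through the siRNA samples, had 0.84, 0.46 and 0.71 FPKM in Scramble, 1.26, 1.20 and 1.93 FPKM under Si-FIBP#1 and 2.33, 1.80 and 1.77 FPKM under Si-FIBP#2, and no test of it is given. RAB3IP, an exchange factor of RAB8A, fell by 0.43 (adjusted p = 9.6e-04) and 0.41 (adjusted p = 0.00114).

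Of 33 GTPase-activating proteins, 11 were higher and 6 lower with Si-FIBP#1, and 10 were higher and 3 lower with Si-FIBP#2 (51.5% and 39.4%, with 47.7% and 48.8% over all genes). TBC1D14, a partner of RAB11 in recycling and autophagy, had 43.0, 44.1 and 44.0 FPKM in Scramble, 22.6, 20.3 and 22.7 FPKM under Si-FIBP#1 and 25.9, 21.2 and 23.0 FPKM under Si-FIBP#2. It fell by 0.97 (SE 0.077, adjusted p = 1.0e-05) and 0.88 (SE 0.077, adjusted p = 2.0e-05). TBC1D17 rose by 0.78 with each siRNA (adjusted p = 1.2e-05 and 1.4e-05) and TBC1D9 by 0.64 and 0.87 (adjusted p = 8.1e-04 and 1.3e-04).

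Of 40 effectors, 15 were higher and 9 lower with Si-FIBP#1, and 16 were higher and 6 lower with Si-FIBP#2, or 60.0% and 55.0% beside 47.7% and 48.8% of all genes. Without SYTL5, 14 of 39 were higher with Si-FIBP#1. Of the 40, 2 passed in opposite directions: MICAL1, which acts on actin, was lower with Si-FIBP#1 (-0.28, adjusted p = 0.0176) and higher with Si-FIBP#2 (0.30, adjusted p = 0.0121), and the golgin GOLGA5 was higher with Si-FIBP#1 (0.26, adjusted p = 0.00428) and lower with Si-FIBP#2 (-0.15, adjusted p = 0.0466). These were named after their values were seen, and between the siRNAs they differed by 0.58 (adjusted p = 0.00209) and -0.41 (adjusted p = 0.00193). The share of all genes that passed in opposite directions is not given here, so this count cannot be set against genes in general. MYO5B, a myosin that RAB11A and RAB8A recruit, had 3.97, 4.12 and 3.81 FPKM in Scramble, 1.83, 1.01 and 0.94 FPKM under Si-FIBP#1 and 1.85, 0.76 and 1.07 FPKM under Si-FIBP#2. It fell by 1.16 (SE 0.20, adjusted p = 0.00111) and 1.19 (SE 0.20, adjusted p = 9.5e-04). PLEKHM1, which links RAB7A to lysosome fusion, rose by 0.74 (adjusted p = 6.6e-05) and 0.98 (adjusted p = 1.3e-05), and RPH3AL, an effector in granule exocytosis, by 0.82 (adjusted p = 0.0118) and 0.71 (adjusted p = 0.0231). Of 3 listed genes of Rab phosphorylation, 2 were tested and both were higher with each siRNA, where 27.8% and 31.1% of all genes were higher. The kinase LRRK2 rose by 0.53 (adjusted p = 0.00303) and 0.64 (adjusted p = 0.001). The phosphatase PPM1H, which acts on RAB8A and RAB10, rose by 0.60 (adjusted p = 0.00281) and 0.95 (adjusted p = 1.9e-04).

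Between Si-FIBP#2 and Si-FIBP#1, 11 of the 120 genes were higher and 8 lower (7 without SYTL5), 15.8% against 15.4% of all genes tested. The count changed with the groups in the fit and with the samples left out, as given in the last section. CHML and RABGGTB were among those higher with Si-FIBP#2, where their falls against Scramble were smaller.

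The promoters of 50 Rab genes, 300 bases around the transcription start in a RefSeq table (GRCh38.p14), were searched on both strands for TTCNNNGAA, the core of a STAT site, since the study concerns STAT3. It was found in 2 of them, RAB1B and RAB30 (4.0%), beside 7.88% of 27305 promoters in all. A match of letters is no measure of binding.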

How the data were processed

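RNA-seq was performed on 9 H1299 samples, 3 each of Scramble, Si-FIBP#1 and Si-FIBP#2. The authors deposited 1 table per sample with values for Ensembl and assembled transcripts, rounded to 2 decimals. The unit is FPKM as deposited by the authors, inferred from the values. The submitters' processing notes name HISAT2 and StringTie; genome build and annotation are not given in the sources used here. The files contain no fragment counts, so no count test was run.

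Transcript FPKM were summed per gene. The 14985 genes that reached 1 FPKM in 3 or more samples entered a single linear model of all 9 samples on log2(FPKM + 1), fitted by limma 3.58.1 (R 4.3.3) with its trended empirical Bayes step and no replicate block, and p-values were adjusted by Benjamini-Hochberg. Thresholds were a false discovery rate of 0.05 and, where stated, a 2-fold change. The steps were tested on simulated data. Named genes were FIBP, the most abundant member of each step, members past both thresholds or past 0.05 between the siRNAs, up to 15 members and up to 3 regulators a class with the largest mean change among those past 0.05 with each siRNA, and others to account for the family. Of the lists, 1 Rab regulator and 1 marker are counted but not reported here by name. The members, the lists and the named-gene rule were chosen with earlier results of these data known. Depth came from the FPKM steps of 8100 genes that have 1 transcript, 800 to 2000 nt long, and FPKM carry no counting interval. Positions and coding sequences are from GENCODE release 29 (GRCh38), and transcript lengths can differ from those quantified. Alternatives were a pseudocount of 0.1, other filters and scalings, Ensembl transcripts alone, the compared groups alone, a replicate block and leaving out each sample. Figures and tables used Python 3.11.15, pandas 2.3.3, numpy 2.4.6, matplotlib 3.10.9 and Biopython 1.88.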

Additional observations from a re-analysis of the deposited data

Results flagged for a closer look

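The direct comparison of Si-FIBP#2 with Si-FIBP#1 found 6 Rab genes whose levels differed between the siRNAs at a false discovery rate of 0.05, 12.8% of the 47 beside 15.4% of all genes. On the log2 scale of FPKM + 1, RAB31 differed by 0.72, RAB4B by 0.44 and RAB1B by 0.34, all higher with Si-FIBP#2, and RAB12 by -0.81, RAB34 by -0.25 and RAB6A by -0.18, all lower with it. The calls of RAB34, RAB4B and RAB6A were lost under 7, 4 and 12 of 17 alternatives. RAB31 passed against Scramble with Si-FIBP#1 (-0.53) and not with Si-FIBP#2 (0.19, adjusted p = 0.0711, limma), which passed as higher without Si-FIBP#2 replicate 2 (0.27). RAB12 passed with Si-FIBP#2 and not with Si-FIBP#1, while RAB4B and RAB34 passed against Scramble with each siRNA and differed in size.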

How the results depend on the processing

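The 20 named Rab genes were refitted under 17 alternatives, which gave 1017 values beside the main ones: 933 kept direction and side of the threshold, 60 no longer passed, 8 newly passed and 16 changed sign, all 16 near 0 and none of them past the threshold. The sign changes were RAB5C with Si-FIBP#2 (-0.05 after median ratio scaling, and -0.02 to 0.13 over the samples left out, the lowest without Si-FIBP#2 replicate 2), RAB11A with Si-FIBP#1 (-0.01 as TPM, -0.04 after median ratio scaling, -0.01 to 0.08 over the samples left out), RAB1B with Si-FIBP#1 (-0.02 after median ratio scaling), RAB6A with Si-FIBP#1 (-0.03 as TPM, -0.07 after median ratio scaling, 0.00 without Scramble replicate 1), and, between the siRNAs, RAB13 (0.03 as TPM, -0.10 to 0.09 over the samples left out), RAB43 (-0.18 to 0.02 over the samples left out) and RAB1A (0.01 as TPM, -0.13 to 0.02 over the samples left out).

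With a pseudocount of 0.1, 1 Rab gene passed both thresholds for Si-FIBP#1 and 2 did for Si-FIBP#2, and with a filter of 5 FPKM 0 did with Si-FIBP#2, since RAB6B was then not tested. With only the 2 groups compared in the fit, 10 of the regulators passed between the siRNAs in place of 19. The share of all genes under that fit is not given here. Between the siRNAs, TPM gave 8 higher and 1 lower Rab genes in place of 3 and 3, where all genes had 12.2% higher and 4.11% lower and a median of 0.08 in place of 0.04. Leaving out single samples gave 11 to 22 Rab genes with Si-FIBP#1 (12 without Scramble replicate 2 or 3, 11 without Si-FIBP#1 replicate 2), 3 to 11 between the siRNAs (3 without Si-FIBP#1 replicate 2 or Si-FIBP#2 replicate 3, 11 without Si-FIBP#2 replicate 2), and 8 to 23 regulators between the siRNAs (10, 8, 11 without Si-FIBP#1 replicates 1, 2 and 3, 9 without Si-FIBP#2 replicate 3). Past both thresholds it gave 0 to 1 Rab genes with Si-FIBP#1 (1 without Scramble replicate 2), 0 to 2 with Si-FIBP#2 (2 without Scramble replicate 1 or Si-FIBP#2 replicate 1) and 0 to 1 between the siRNAs (1 without Si-FIBP#2 replicate 2). The shares of all genes in these fits with a sample left out are not given here, so the counts cannot be set against genes in general. The cause was not tested.

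Groups share replicate numbers, and the correlation of the deviations of same-numbered samples was weak, -0.057 to 0.103, over 0.1 in 1 of 9 pairs, so the numbers were not taken to pair the samples. As a hint from the data, 8 of 9 samples correlated best with their own number. With the replicate block, 16 Rab genes passed for Si-FIBP#1, 28 for Si-FIBP#2 and 7 between the siRNAs, beside 47.3%, 48.6% and 14.5% of all genes. The depth limits genes under about 1 FPKM, and no test was run on single transcripts.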
